A study of Mus musculus with 16 samples.

Results

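The genes described here encode the ephrins and Eph receptors, the semaphorins of classes 3 to 7 with their plexin and neuropilin receptors, the Slits and Robos, and the netrins Ntn1, Ntn3 and Ntn4 with the Unc5 receptors. They were chosen by symbol alone: 67 of the 55228 gene symbols in the count table carried such a name. Of these, 66 had a mean over the 16 libraries of at least 0.5 CPM (counts scaled to a common library total) and were kept. Epha10 was the lowest of those kept at 0.835 CPM. Robo3, which was left out, lay far under the limit at 0.094 CPM, with at most 8 counts in a library. All 66 also passed the filter on low counts and were tested among 18254 genes.

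RNA was sequenced from the mesenchyme of 2 adjoining organs of the lower urinary tract, the bladder and the pelvic urethra, of wild-type mouse embryos of the CD-1 stock, collected at embryonic day 16.5. CD-1 mice are outbred, and no group carried a transgene or received an agent. The 4 groups were bladder and urethra of females and bladder and urethra of males, with 4 libraries each, and the design set out to find genes that differ between the compartments. Each library was a pool of embryos of 1 sex from 1 of 4 litters, freed of epithelium with trypsin and forceps, so each litter gave all 4 kinds of library and the number of embryos in a pool was not given. Bladder libraries held 18577097 to 22293812 counts and urethra libraries 24447435 to 29698009. Over both sexes n = 8 libraries a tissue, in which each litter stands once per sex.

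In these systems a ligand on or from one cell steers the movement, shape or adhesion of a cell that carries the receptor. Ephrins stay on the cell surface: ephrin-A ligands are held by a lipid anchor and bind mainly EphA receptors, ephrin-B ligands span the membrane and bind mainly EphB receptors, and both partners can signal. Class 3 semaphorins are secreted and act through neuropilins joined to A-type plexins (Sema3e through Plxnd1), most semaphorins of classes 4 to 7 stay on the membrane and bind plexins, Slits repel cells through Robos, and netrins attract through Dcc or repel through Unc5 receptors. Growing autonomic axons, migrating neural crest cells, blood vessels and the edges between tissues all use them in the embryonic pelvis.

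The libraries held RNA of several cell types, in amounts that differed between the tissues. Of 10 fibroblast and mesenchyme markers 4 were higher in the urethra, 5 lower and 1 not called: the collagen gene Col1a1 stood at 5786 CPM in bladder and 2595 CPM in urethra, and the receptor gene Pdgfra at 129.7 and 598.1 CPM. Of 19 neuron markers 19 were higher in the urethra, where their summed level ran from 3481 to 5883 CPM against 203.7 to 1098 CPM in bladder, and 1 bladder library, male 3, held the 1098 CPM. Of 10 markers of Schwann and satellite glia 9 were higher in the urethra (summed 256.2 to 323.8 CPM against 96.25 to 168.8 CPM), and of 17 of blood vessel endothelium 15 were higher and 1 lower (768.4 to 1008 CPM against 460.8 to 745.3 CPM). Of 16 epithelial markers 10 were lower in the urethra and 1 higher, with sums of 833.1 to 3137 CPM against 2196 to 5516 CPM in bladder, and 10 of 10 smooth muscle markers were lower (1684 to 2242 CPM against 14520 to 18820 CPM). Of 10 skeletal muscle markers 8 were higher in the urethra and 2 lower (118.5 to 216.6 CPM against 50.74 to 91.04 CPM), and 6 of 7 mesothelial markers were lower (208.8 to 489 CPM against 825 to 1523 CPM). None of these lists had a defining marker at 0 in the mean of either tissue. A score of the epithelial markers was tried in the fits, and between the sexes also a score of the neuron markers. Beyond those fits the part of these cell types in the differences given here was not tested. In bulk tissue fewer cells of a type and less RNA per cell cannot be told apart.

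The starts of 4 member genes are shown because they frame the contrasts that follow: Epha5 and Robo2 are among the receptors with the largest rise in the urethra, Epha8 fell there most, and Epha3 differed most firmly between the sexes. They were chosen after their values were seen. Each sequence is the 250 bases before the start of the gene on its own strand, from RefSeq on build GRCm38.p6, and all 4 genes lie on the minus strand. Capitals mark GGGCGG or its reverse complement CCGCCC, the box that Sp and KLF factors can bind. The windows are chr5:84417383-84417632 (Epha5), chr16:74411826-74412075 (Robo2), chr4:136956817-136957066 (Epha8) and chr16:63864176-63864425 (Epha3).
Epha5: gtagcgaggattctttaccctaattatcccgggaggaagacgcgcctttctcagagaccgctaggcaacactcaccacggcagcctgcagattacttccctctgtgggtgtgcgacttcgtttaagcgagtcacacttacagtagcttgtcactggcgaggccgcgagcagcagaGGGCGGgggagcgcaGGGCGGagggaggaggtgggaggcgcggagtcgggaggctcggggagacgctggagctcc
Robo2: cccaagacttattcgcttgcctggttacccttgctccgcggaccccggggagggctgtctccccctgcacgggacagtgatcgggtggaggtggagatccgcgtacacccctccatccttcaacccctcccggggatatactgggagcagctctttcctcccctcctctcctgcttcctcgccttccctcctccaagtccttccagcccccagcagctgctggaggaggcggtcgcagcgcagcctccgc
Epha8: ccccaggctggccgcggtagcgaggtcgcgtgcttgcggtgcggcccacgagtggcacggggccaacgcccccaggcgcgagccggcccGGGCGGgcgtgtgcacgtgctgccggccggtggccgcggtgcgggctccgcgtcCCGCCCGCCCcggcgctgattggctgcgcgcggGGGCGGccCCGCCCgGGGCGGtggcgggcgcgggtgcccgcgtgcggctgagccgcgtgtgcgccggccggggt
Epha3: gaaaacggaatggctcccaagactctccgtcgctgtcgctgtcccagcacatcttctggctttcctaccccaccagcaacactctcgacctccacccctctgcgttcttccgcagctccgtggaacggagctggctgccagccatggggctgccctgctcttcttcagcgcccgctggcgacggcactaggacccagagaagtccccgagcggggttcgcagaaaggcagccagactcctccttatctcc

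The Epha8 window held 84% G and C and 6 boxes, of which 1 pair overlapped. The Epha5 window held 62.4% G and C and 2 boxes, and those of Robo2 (65.6%) and Epha3 (62.8%) held none. RefSeq windows were found by symbol for 57 of the 66 members, and for 46 of these the window met the start of the gene model that was counted. GGGCGG, read on both strands, stood in 37 of the 46 windows and in 32.7% of the 32817 windows of all genes. The median G and C content was 65.8% in the members' windows and 52.4% in all windows, and the share of windows with a GC-rich box was not adjusted for that difference. Of 36 genes that were higher in the urethra 28 held the box, and of 6 that were lower 5 did. CAGCTG, an E-box that reads the same on both strands, stood in 8 of 46 member windows (13% of all windows), all 8 of them before genes that were higher, and in the Robo2 window once. TATAAA stood in 2 of 46 (12.4% of all) and TGACTCA, the AP-1 site, in 1 of 46 (4.46% of all), both strands read. A match is a description of these letters and no more.

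Most guidance genes were higher in the urethra than in the bladder. Levels are given as CPM scaled between libraries by edgeR's trimmed means (TMM), or, to compare genes, per kilobase of exon as RPKM, and differences as log2 fold changes with their standard error (SE). A gene is called where edgeR's quasi-likelihood test gave an adjusted p (Benjamini-Hochberg) under 0.05. Of the 66 members 50 were higher in the urethra, 11 were lower and 5 were not called. Over all 18254 genes 75% were called, 36.5% higher and 38.5% lower, so a call by itself is common here, and the members' counts are read by direction. Their median log2 fold change was 0.84, against -0.03 over all genes. At least a 2-fold rise was seen in 27 members and a 2-fold fall in 3, where 12.6% and 9.41% of all genes passed the same rules. The cut of 0.5 CPM for members was a mean over both tissues. Epha6, Epha10 and Slit1 lay under it in bladder and passed only through the urethra. The cut could admit such genes only if they were higher in the urethra, so their rises are no support for the direction. The 8 bladder and 8 urethra values did not overlap for 42 of the 61 called members, or 68.9%, where 56.5% of all called genes had no overlap (42.3% of all tested genes). In all 8 litter-and-sex pairs 53 of the 61 went the same way, or 86.9%, close to the 83.5% of all called genes (62.6% of all tested genes). When libraries were scaled by their totals alone, the median of all genes moved to 0.11, with 8341 genes higher and 5381 lower in place of 6664 and 7019, and the members stood at 51 higher and 9 lower.

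**Figure D1:**
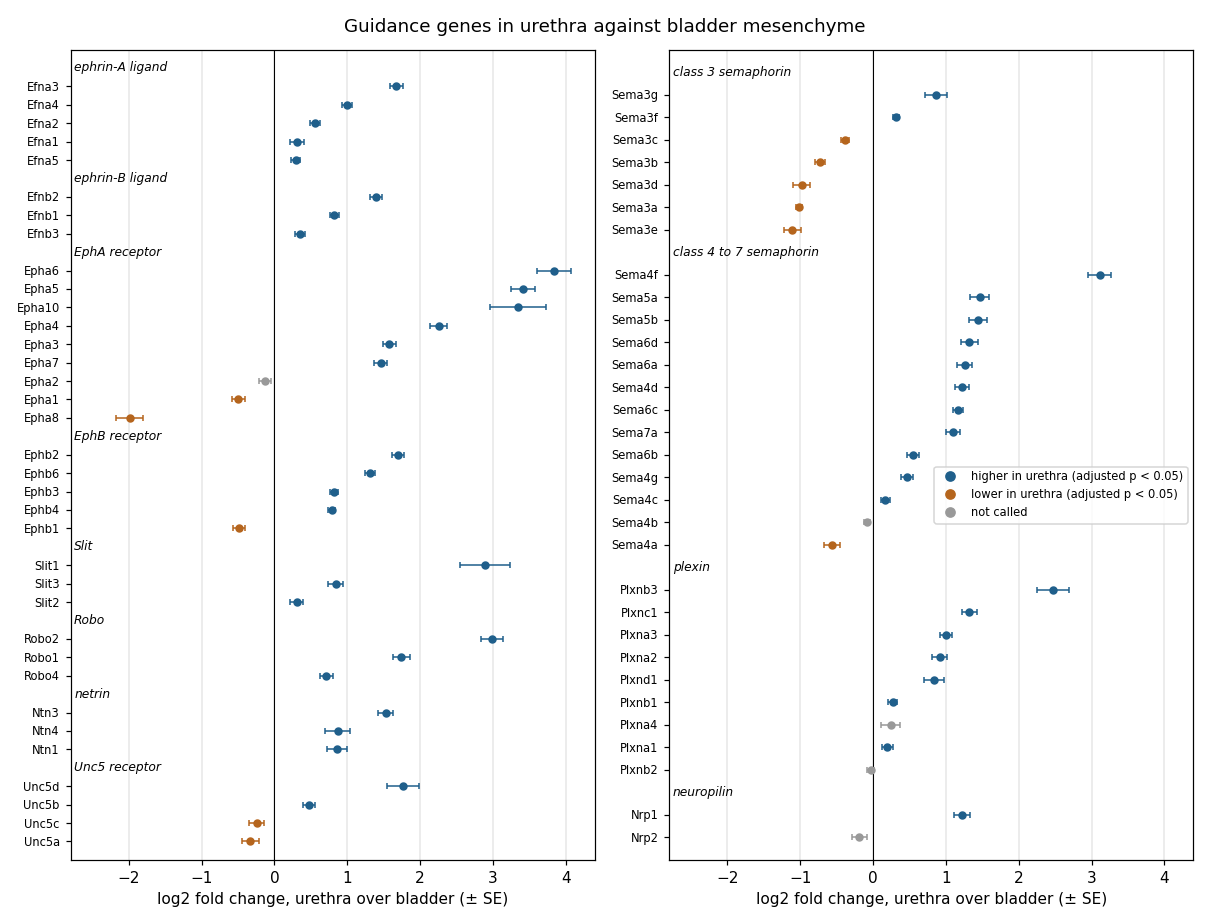
Log2 fold change of each guidance gene in urethra over bladder mesenchyme (horizontal axis, dots with bars of 1 SE, 8 libraries a tissue), grouped by role. Blue dots are called higher, orange lower and grey not called at an adjusted p of 0.05, and of the 11 orange dots 5 are class 3 semaphorins.

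The pattern held in each sex. In females 48 members were higher and 8 lower (32.6% and 33.1% of all genes), and in males 46 were higher and 11 lower (31.4% and 32.6%). The 2 comparisons share no library, but both came from the same fit over all 16 libraries and from the same 4 litters. They are therefore not independent. Leaving out any male urethra library ended the female call of Plxna1, and leaving out some female libraries ended the male call of Nrp2. With the groups of each sex fitted alone, 54 of 56 female calls and 57 of 57 male calls were kept. Of the members, 44 were called higher in both sexes, 8 were called lower in both and 0 were called in opposite directions. The other 9 of the 61 were not called in each sex alone: Sema4c and Unc5c in neither, Efna1, Ntn4, Ephb1 and Unc5a in males only, and Plxna1, Plxnb1 and Slit2 in females only. Of these the difference between the sexes passed the test of interaction for Ephb1.

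**Figure D2:**
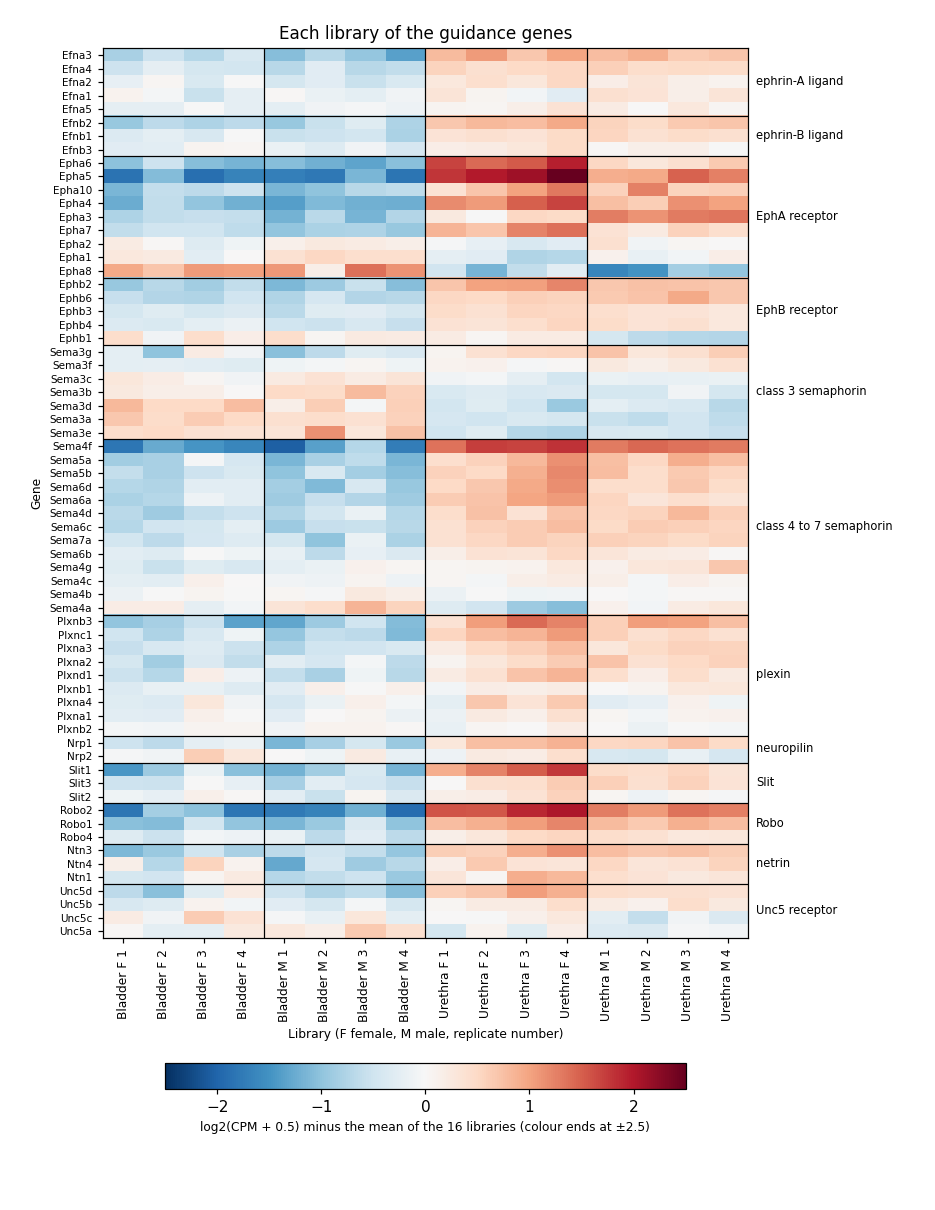
Colour shows log2(CPM + 0.5) of each gene (rows, grouped by role) in each of the 16 libraries (columns) minus that gene's mean over the 16 libraries, with red high and blue low. Urethra columns are mostly red and bladder columns mostly blue, and the rows of Epha8, Sema3a, Sema3b, Sema3d and Sema3e show the reverse.

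Among the ligands of Eph receptors, all 5 ephrin-A genes and all 3 ephrin-B genes rose in the urethra. Efna3 rose most among the ephrin-A genes. Its bladder libraries held 6.02 to 12.2 CPM (median 9.44) and its urethra libraries 25.7 to 34.8 CPM (median 28.4), a log2 fold change of 1.67 ± 0.09 (SE, adjusted p = 8.4e-11). The 2 ranges lay far apart. Efna4 followed with 18.4 ± 2.35 CPM in bladder and 36.7 ± 1.58 CPM in urethra (SD, n = 8), a log2 fold change of 1.00 ± 0.06. Efna1, the ephrin-A gene with the highest level per length in both tissues, moved little: 19.98 RPKM in bladder and 24.9 RPKM in urethra, with ranges that overlapped and a log2 fold change of 0.31 ± 0.09 (adjusted p = 0.0059). It ranked first in 8 of 8 bladder libraries and in 6 of 8 urethra libraries, the others being led by Efna4. Efna1, Efna3 and Efna4 lie side by side on chromosome 3 in build GRCm38 (chr3:89271733-89338028), with 32756 bases between Efna1 and Efna3, 10424 between Efna3 and Efna4, and no tested gene in either gap.

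Efnb2, the ligand that marks arteries and pairs with Ephb4 on veins, rose most among the ephrin-B genes. It went from 79.4 to 124.4 CPM in bladder (median 93.2) to 211.8 to 296.3 CPM in urethra (median 246.9), a log2 fold change of 1.39 ± 0.08 (adjusted p = 1.3e-10), with no overlap. Efnb1, which on the X chromosome shapes tissue boundaries, rose by 0.82 ± 0.06 from 94.5 ± 15.4 CPM to 166.3 ± 8.12 CPM (SD, n = 8). Per length Efnb1 led in 8 of 8 libraries of both tissues, at 27.4 RPKM in bladder and 48.2 RPKM in urethra. The order below it changed: Efnb3 stood above Efnb2 in 8 of 8 bladder libraries (22.2 and 13.9 RPKM) and Efnb2 above Efnb3 in 8 of 8 urethra libraries (36.5 and 28.4 RPKM). Efna5 and Efnb3 rose by 0.29 and 0.35 on the log2 scale, and both lost the call when a score of the epithelial markers was fitted beside the tissue (adjusted p = 0.077 and 0.085).

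The EphA receptors held both the largest rises and the largest fall of the whole set. Of 9 genes 6 rose, Epha8 and Epha1 fell, and Epha2 was not called (log2 fold change -0.13). Epha6 (chr16:59653483-60605531) had the largest fold, 3.84 ± 0.23 on the log2 scale (adjusted p = 2.0e-10), but from a very low level: 0.046 to 0.455 CPM in bladder (median 0.151) and 1.15 to 4.72 CPM in urethra (median 2.39). Epha10 was as scarce, at 0 to 0.265 CPM in bladder and 0.921 to 2.26 CPM in urethra, with a log2 fold change of 3.34 ± 0.38 that ran from 2.68 to 3.57 over 25 other settings. Neither gene's tissue ranges overlapped, and both passed the cut for members only through their urethra levels.

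Epha5 (chr5:84054761-84417382) rose from 2.38 to 4.55 CPM in bladder (median 2.67) to 19.5 to 59.1 CPM in urethra (median 32.6), a log2 fold change of 3.42 ± 0.16 (adjusted p = 1.9e-11). All urethra libraries lay above all bladder libraries, females more so than males. Epha4 (chr1:77367185-77515088), a receptor that takes both ephrin-A and ephrin-B ligands, rose from 30.0 to 51.2 CPM (median 34.1) to 120.9 to 254.1 CPM (median 170.6), by 2.25 ± 0.11. Epha3 and Epha7 rose by 1.58 ± 0.09 and 1.46 ± 0.09, each with no overlap between the tissues.

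Epha8 (chr4:136929419-136956816) went the other way. Bladder libraries held 9.34 to 22.7 CPM (median 17.9) and urethra libraries 2.39 to 6.91 CPM (median 4.22), a log2 fold change of -1.99 ± 0.18 (adjusted p = 5.5e-08) with the urethra lower in 8 of 8 pairs. Ephb2, which rose by 1.70, lies 93430 bases away on the same chromosome with 3 tested genes between them. Epha1, a receptor of epithelia, fell by 0.50 on the log2 scale (from 44.0 ± 7.34 to 31.5 ± 7.13 CPM, SD, n = 8) with ranges that overlapped. With the epithelial marker score in the fit Epha1 stood at -0.15 (adjusted p = 0.082).

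These opposite changes altered the order of the EphA genes per length. In bladder Epha1 was first in 8 of 8 libraries at 11.2 ± 1.87 RPKM (SD, n = 8), above Epha3 (6.04), Epha7 (5.45) and Epha4 (4.54), whose ranges overlapped with those of their neighbours. In urethra, over both sexes, Epha4 (21.9 ± 5.48 RPKM) and Epha3 (18.9 ± 6.61) stood highest, each first in 4 of 8 libraries, and Epha7 followed at 15.3 RPKM. That order differed by sex: Epha4 was first in every female library and Epha3 in every male one. Epha7 stood above Epha3 in every female library and below it in every male one. Epha1 stood next in urethra at 8.01 RPKM, below Epha7 in 8 of 8 libraries. Epha5 and Epha6, in spite of the largest folds, reached only 2.06 and 0.49 RPKM.

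Among the EphB receptors 4 of 5 rose and Ephb1 fell. Ephb2 rose most: 25.9 to 38.5 CPM in bladder (median 30.6) and 90.6 to 134.0 CPM in urethra (median 94.3) gave a log2 fold change of 1.70 ± 0.09 (adjusted p = 3.1e-11), with no overlap. Ephb6, a member without kinase activity, rose by 1.31 ± 0.06 from 17.5 ± 1.68 to 43.5 ± 4.66 CPM (SD, n = 8). Ephb4, the vein receptor, had by far the highest level of any Eph receptor, 32.4 RPKM in bladder and 55.6 RPKM in urethra, and rose by 0.79 ± 0.05. Ephb1 fell by 0.49 on the log2 scale over both sexes, a value that joins -0.10 in females, which was not called, and -0.88 in males.

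**Figure D3:**
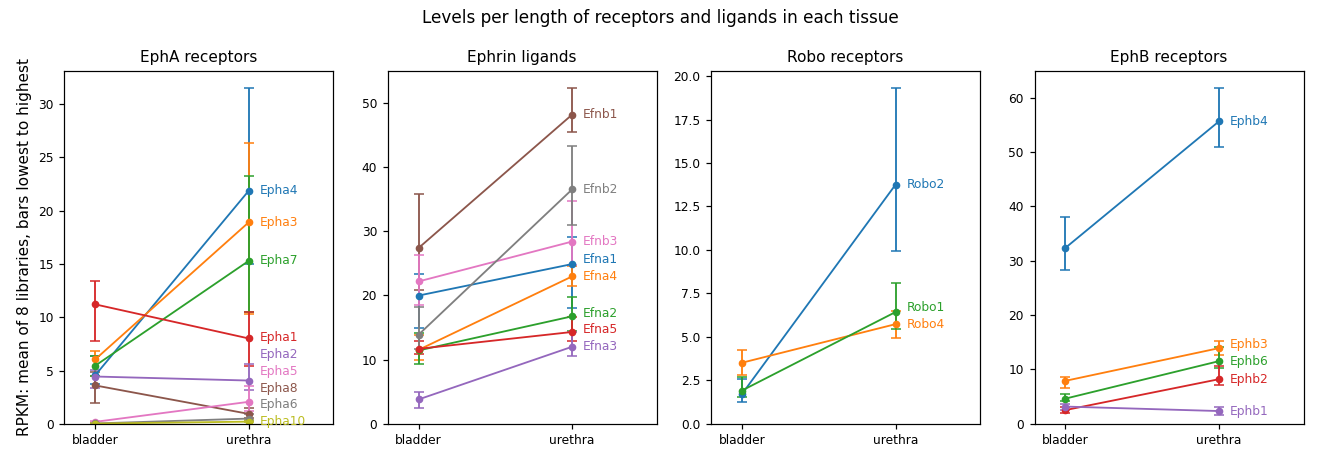
Level per length (RPKM, vertical axis, own scale in each panel) of the EphA receptors, ephrins, Robo receptors and EphB receptors in bladder and urethra, as means of 8 libraries with bars from the lowest to the highest. Lines that cross show the changed orders: Epha4, Epha3 and Epha7 over Epha1, Efnb2 over Efnb3, and Robo2 over Robo4.

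The semaphorins split by class. Of the 7 secreted class 3 genes 5 fell and 2 rose in the urethra (median log2 fold change -0.73), whereas of the 13 genes of classes 4 to 7 11 rose, Sema4a fell and Sema4b was not called (median 1.16). The difference between the classes was not tested as such. Sema3a, the classical repellent of sensory and sympathetic axons, held 96.7 to 118.8 CPM in bladder (median 104.0) and 47.7 to 57.5 CPM in urethra (median 53.2), a log2 fold change of -1.02 ± 0.04 (adjusted p = 5.1e-12). All bladder libraries lay well above all urethra libraries. Sema3e, the ligand of Plxnd1, fell by 1.11 on the log2 scale, from 11.48 to 21.2 CPM (median 12.6) to 5.26 to 7.46 CPM (median 6.53), also without overlap. Sema3c, the class 3 gene with the highest level in 8 of 8 libraries of each tissue (32.6 and 24.9 RPKM), fell by 0.38 ± 0.06 with ranges that overlapped. Sema3d and Sema3b fell by 0.98 and 0.73, neither with overlap.

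Sema3f and Sema3g, the class 3 genes that rose, did so by 0.31 ± 0.04 and 0.87 ± 0.15 on the log2 scale. Sema3f, a ligand that prefers Nrp2, held 74.8 to 95.8 CPM in bladder (median 82.0) and 90.6 to 119.7 CPM in urethra (median 100.4), higher in the urethra in 8 of 8 pairs although the ranges overlapped. Sema3b and Sema3f lie 72270 bases apart on chromosome 9 (chr9:107597674-107609229 and chr9:107681500-107710475) and moved in opposite directions. The 4 others that fell, Sema3d, Sema3a, Sema3e and Sema3c, all lie on chromosome 5 between 12383385 and 17730268. No tested gene lies between Sema3d and Sema3a, 1 lies between Sema3a and Sema3e and 5 between Sema3e and Sema3c.

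Sema4f, a membrane semaphorin of neurons and glia, had the largest rise of its class, from 2.21 to 6.25 CPM in bladder (median 3.29) to 26.9 to 38.1 CPM in urethra (median 28.8), a log2 fold change of 3.11 ± 0.16 (adjusted p = 3.0e-11). The highest bladder value, 6.25 CPM, came from bladder male 3, the library with the most neuronal RNA in that tissue. The part of neuronal RNA in that value was not tested. Sema5a rose by 1.46 ± 0.13 from 145.9 ± 39.9 to 398.0 ± 64.9 CPM (SD, n = 8), without overlap, and became first in its class: Sema4c led in 8 of 8 bladder libraries (13.6 RPKM, with Sema5a at 7.81) and Sema5a in 8 of 8 urethra libraries (21.3 RPKM, with Sema4c at 15.2). Sema6a, Sema6c, Sema6d, Sema5b, Sema4d and Sema7a rose by between 1.10 and 1.44 on the log2 scale, all without overlap. Sema4a fell by 0.57 (adjusted p = 2.4e-04), with ranges that overlapped but the urethra lower in 8 of 8 pairs. With the epithelial marker score in the fit Sema4a stood at -0.15 (adjusted p = 0.17) and Sema4c, which had risen by 0.17, was no longer called (adjusted p = 0.83).

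**Figure D4:**
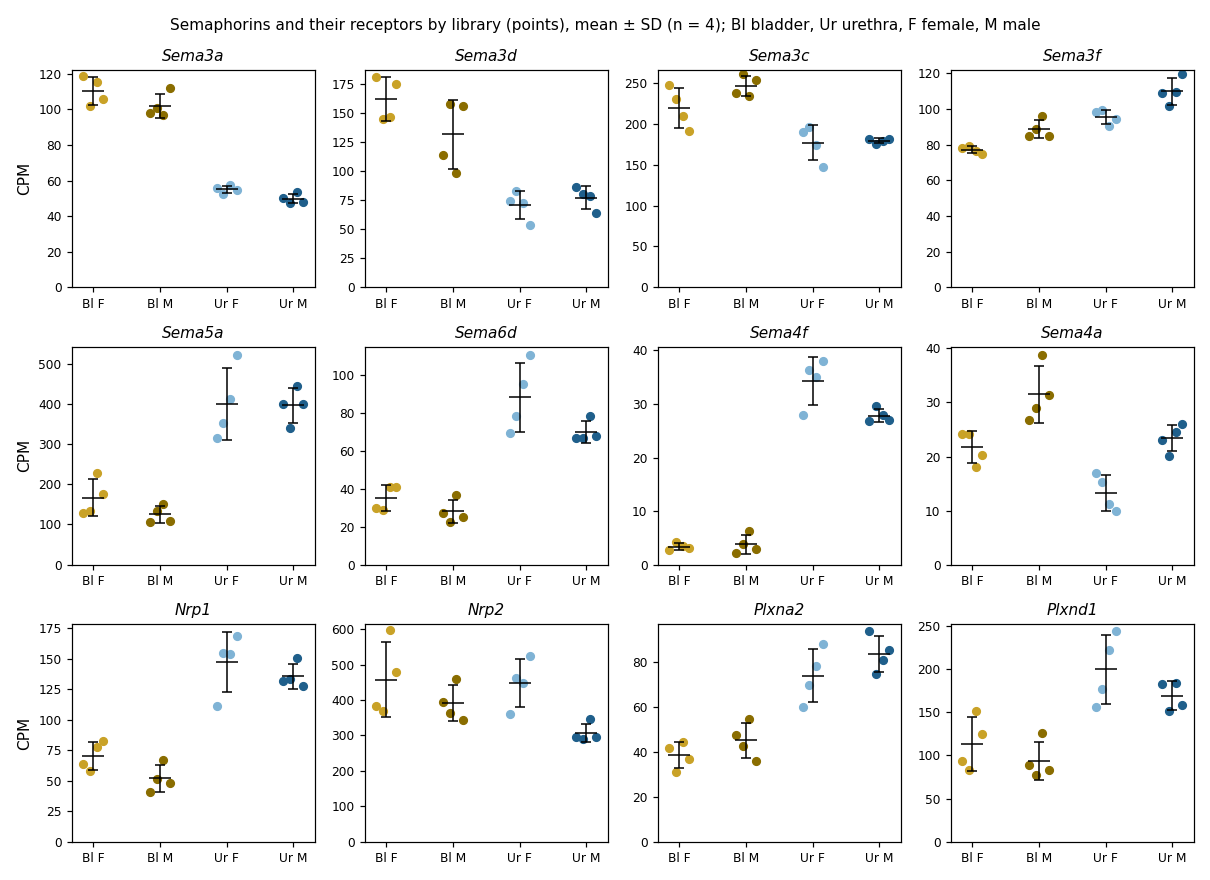
CPM (vertical axis, from 0) of 8 semaphorins and 4 of their receptors in each library, grouped by tissue and sex, with the mean and SD of 4 libraries. Sema3a, Sema3d and Sema3c are higher in bladder, and Sema5a, Sema6d, Sema4f, Nrp1, Plxna2 and Plxnd1 are higher in urethra.

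Of the semaphorin receptors, 7 of 9 plexins and 1 of 2 neuropilins rose over both sexes and none was called lower. Nrp1, which takes Sema3a and the vessel factor Vegfa, held 41.1 to 82.4 CPM in bladder (median 60.7) and 111.4 to 168.4 CPM in urethra (median 141.8), a log2 fold change of 1.22 ± 0.11 (adjusted p = 3.0e-08), so it rose where Sema3a fell. Nrp2 was not called over both sexes (log2 fold change -0.19, adjusted p = 0.10). In males alone it was called lower (-0.35, adjusted p = 0.044), a call found in 12 of 26 other settings. In females it stood at -0.03 and was not called, and its interaction did not pass the test. Over both sexes Nrp2 was called lower in 2 of 25 other settings, the replicate block by litter and sex and the epithelial marker score. Per length Nrp2 still stood above Nrp1 in 8 of 8 libraries of each tissue (35.8 against 6.25 RPKM in bladder, 31.9 against 14.4 RPKM in urethra). Plxnb3 had the largest rise of the plexins, 2.47 ± 0.22 on the log2 scale, from 0.372 to 1.07 CPM (median 0.648) to 2.32 to 5.39 CPM (median 3.99). Plxnc1, the receptor of Sema7a, rose by 1.32 ± 0.11. Its ligand Sema7a rose by 1.10. Plxnb2 was the most abundant plexin in all libraries at 47.3 RPKM in bladder and 46.2 RPKM in urethra, and its log2 fold change of -0.03 was not called (adjusted p = 0.55). Its sign turned under library totals alone (0.10), without the filter on low counts (0.04) and without bladder female 3 (0.014), bladder female 4 (0.009) or bladder male 3 (0.013). Plxna4 was not called over both sexes (0.24, adjusted p = 0.10), was called in females (0.49, adjusted p = 0.030) and stood at -0.003 in males, a difference that did not pass the test of interaction (adjusted p = 0.68). With the litter as replicate block Plxna4 was called over both sexes (adjusted p = 0.033). The call of Plxna1 (0.20, adjusted p = 0.033) was lost when any 1 of bladder male 4, urethra female 2, urethra female 4, urethra male 3 and urethra male 4 was left out, and with the epithelial marker score in the fit (highest adjusted p over these settings = 0.95).

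The Slits and the Robos all rose. Robo2 (chr16:73891839-74411825) held 21.1 to 44.2 CPM in bladder (median 24.1) and 168.7 to 328.4 CPM in urethra (median 221.5), a log2 fold change of 2.99 ± 0.16 (adjusted p = 1.2e-10). Every urethra library lay above every bladder library by more than 3-fold. Robo1, its neighbour on chromosome 16 with no tested gene between them, rose by 1.74 ± 0.12 from 31.6 ± 7.16 to 106.2 ± 13.9 CPM (SD, n = 8). Robo4, the Robo of endothelium, rose least, by 0.71 ± 0.09. Per length Robo4 was first in 8 of 8 bladder libraries (3.51 RPKM, with Robo2 last at 1.71) and Robo2 in 8 of 8 urethra libraries (13.8 RPKM, with Robo4 last at 5.73).

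Slit1 had the largest fold of the Slits at the lowest level, 0 to 0.709 CPM in bladder (median 0.193) and 1.21 to 4.15 CPM in urethra (median 1.77), 2.90 ± 0.35 on the log2 scale (adjusted p = 9.7e-07). It passed the cut for members only through its urethra level. Slit3, the most abundant Slit in 8 of 8 libraries of each tissue, rose by 0.84 ± 0.10, from 80.4 to 141.8 CPM (median 103.7) to 145.0 to 221.6 CPM (median 190.9), without overlap. Slit2 rose by 0.30 ± 0.08 with overlapping ranges, and its call was lost with the epithelial marker score in the fit (adjusted p = 0.40).

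All 3 netrins rose and the Unc5 receptors divided. Ntn3 rose most, from 21.8 to 33.9 CPM in bladder (median 28.5) to 71.6 to 105.8 CPM in urethra (median 78.0), by 1.53 ± 0.10 on the log2 scale (adjusted p = 6.0e-10), without overlap. Ntn4, a netrin of basement membranes, rose by 0.87 ± 0.17 at 3.01 ± 1.53 CPM in bladder and 5.18 ± 0.638 CPM in urethra (SD, n = 8), with overlap. In females Ntn4 stood at 0.32 and was not called (adjusted p = 0.24), and in males it rose by 1.42 (interaction adjusted p = 0.22). Unc5d rose by 1.77 ± 0.22 from a median of 0.455 to a median of 1.66 CPM, and Unc5b, the vessel receptor and the most abundant of the family in 8 of 8 libraries of each tissue (14.7 and 20.3 RPKM), by 0.47 ± 0.08. Unc5a and Unc5c fell by 0.33 and 0.25 on the log2 scale, with overlapping ranges and adjusted p = 0.017 and 0.040. Unc5a stood at -0.07 in females (adjusted p = 0.74) and -0.60 in males (adjusted p = 0.0043), and the interaction did not pass its test (adjusted p = 0.53). Left out singly, bladder female 4 and bladder male 3 ended the call of Unc5a (highest adjusted p = 0.072), and 10 of the 16 ended that of Unc5c (highest adjusted p = 0.19): bladder female 1, female 3, female 4, male 1 and male 3, and urethra female 1, female 2, female 3, male 2 and male 4. Unc5c was called in 10 of 25 other settings.

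Genes around these systems that do not carry their names were followed in 4 lists, also chosen with earlier results of these data known. Of 25 tested ligands and co-receptors 21 were higher in the urethra and 3 lower (background 36.5% and 38.5%, as above). Islr2, a neuronal membrane protein, was highest at 3.42 ± 0.22 on the log2 scale (1.58 CPM in bladder, 17.2 CPM in urethra), Dcc, the netrin receptor, rose by 2.60 (6.6 to 40.4 CPM), and Rgmb, a ligand of Neo1, fell most, by 0.48. Of 27 carriers of Slit, Robo and netrin signals 21 were higher and 3 lower, from Trim67 (4.07 ± 0.40) to Vasp, an actin regulator (-0.996 ± 0.03). The carriers of semaphorin and of Eph signals were more evenly split. Of 27 semaphorin and plexin carriers 14 were higher and 10 lower, from Crmp1, a phosphoprotein of growth cones (3.79 ± 0.34), to the small GTPase Rap1a (-1.95 ± 0.05). Of 26 Eph and ephrin carriers 12 were higher and 6 lower, and the kinase Fyn rose most (1.04 ± 0.05). The carrier of that list that fell most is not reported here. Fyn, Nck1 and Nck2 stand in more than 1 list.

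Between the sexes the urethra differed in 11 of 66 members. In males 4 were higher (3.97% of all genes) and 7 lower (2.42%). For all 11 the 4 male and 4 female values did not overlap, as was so for 94.1% of all called genes (6.02% of all tested genes), and with no overlap all 4 litters go the same way. At an unadjusted p under 0.05 the counts were 8 higher and 18 lower, against 9.84% and 9.32% of all genes. Of the 11, 5 were among the 9 EphA receptors (55.6%) and 1, Ephb1, among the 5 EphB receptors (20%). The share called was 16.7% of all members and 6.39% of all genes.

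Epha3 had the largest rise of males over females. Female urethra held 106.7, 89.6, 128.3 and 125.2 CPM in litters 1 to 4, and male urethra 219.8, 196.4, 220.5 and 228.7 CPM. Every male value lay more than 1.5-fold above every female value, and the log2 fold change was 0.94 ± 0.12 (adjusted p = 1.1e-04). The other EphA genes that differed, apart from Epha1, went the other way. Epha6 held 3.88, 3.13, 3.45 and 4.72 CPM in females and 1.46, 1.15, 1.30 and 1.66 CPM in males, a log2 fold change of -1.44 ± 0.20 (adjusted p = 2.5e-04). Epha7 held 159.0, 142.8, 209.1 and 230.1 CPM in females and 113.7, 103.7, 131.2 and 119.0 CPM in males, -0.67 ± 0.12 (adjusted p = 0.0025). Epha5 held 36.1, 41.4, 46.1 and 59.1 CPM in females and 19.5, 20.1, 29.0 and 24.97 CPM in males, -0.97 ± 0.19 (adjusted p = 0.0050). In these 3 genes females were high in every litter, with female 4 the highest of all. Epha4 pointed the same way without being called, at 178.8, 165.8, 222.9 and 254.1 CPM in females and 132.9, 120.9, 175.4 and 158.1 CPM in males (-0.48 ± 0.15, adjusted p = 0.074).

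Ephb1 was lower in males in all 4 litters, with 21.5, 19.2, 21.5 and 21.6 CPM in females and 13.7, 11.7, 11.1 and 11.1 CPM in males (-0.82 ± 0.12, adjusted p = 2.9e-04). The semaphorin genes Sema4a and Sema3f were higher in males. Sema4a held 17.03, 15.2, 11.2 and 9.95 CPM in females and 23.1, 20.2, 24.5 and 25.9 CPM in males (0.81 ± 0.16, adjusted p = 0.0048), and Sema3f differed by 0.20 ± 0.06 (adjusted p = 0.041). Lower in males were Sema6a (-0.47, adjusted p = 0.044), Nrp2 (-0.55, adjusted p = 0.031) and Slit1 (-1.19, adjusted p = 0.047). Epha1 was higher in males by 0.49 ± 0.13 (adjusted p = 0.033).

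**Figure D5:**
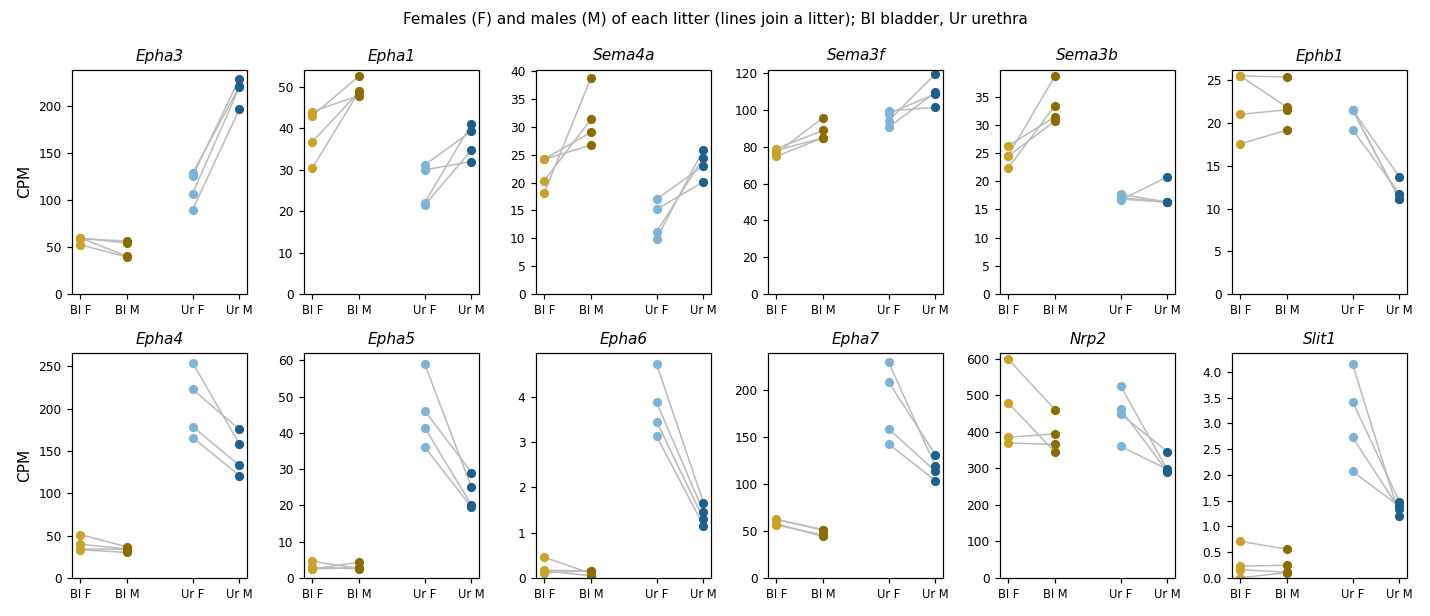
CPM (vertical axis, own scale from 0) of 12 guidance genes in females and males of each litter, with a line joining the 2 sexes of a litter, for bladder (yellow and brown points) and urethra (blue points). In the urethra the lines of Epha3 all climb and those of Epha6, Epha7, Epha5, Ephb1, Nrp2 and Slit1 all descend, and the lines of Epha1, Sema4a and Sema3f climb in both tissues, although none of these 3 was called in bladder.

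Epithelial RNA moved with this comparison. The summed epithelial markers ran from 833.1 to 2549 CPM in female urethra, lowest in female 4 and female 3, and from 2403 to 3137 CPM in male urethra, while 0 of the 16 markers were called. With the epithelial score in the fit 2 members were higher in males and 3 lower. Without the 3 libraries of lowest score, urethra female 4, urethra female 3 and bladder female 3, 1 was higher and 3 were lower. Epha3, Epha6, Epha7 and Ephb1 were called in all 26 settings tried, Epha3 at 1.07 with the score in the fit and 1.14 without those 3 libraries. Sema4a was called in 25 of 26 and Epha5 in 24 of 26. Neuronal RNA overlapped between the sexes (3889 to 5883 CPM in females, 3481 to 4314 CPM in males) with 0 of 19 markers called. Its sum was lower in males in every litter, though barely in litter 3 (4314 against 4319 CPM), and the markers' median log2 fold change was -0.315. With a neuron score in the fit 9 of the 11 calls were kept.

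The calls of 5 members were not stable: each was lost in 5 to 11 of the 16 fits without 1 library. Epha1 was lost when urethra female 3, urethra female 4, urethra male 1, urethra male 3 or urethra male 4 was left out (highest adjusted p = 0.12), and Sema3f in these cases and without bladder male 2 (highest adjusted p = 0.17). Nrp2 was lost without bladder female 4, bladder male 1, or any urethra library but female 1 and male 3 (8 of 16 fits, highest adjusted p = 0.12). Sema6a was lost in 11 of 16 fits (highest adjusted p = 0.15) and kept only without bladder female 1, bladder female 3, bladder male 2, urethra female 1 or urethra female 2. Slit1 was lost in 11 of 16 fits (highest adjusted p = 0.16) and kept only without bladder female 1, bladder female 3, bladder male 3, bladder male 4 or urethra female 1. With the litter as a replicate block the 11 calls were kept and Unc5c, Epha8, Epha2, Slit2 and Plxna4 were added, which gave 5 higher and 11 lower.

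Of the 25 listed ligands and co-receptors around these systems 5 were lower in males in the urethra and 0 higher (2.42% and 3.97% of all genes): Dscaml1 (-1.35 ± 0.23), Ntng1, a netrin-like membrane protein (-1.11 ± 0.17), Cntn1 (-0.87), Adgrl3 (-0.73) and Dcc (-0.64), which held 49.2 CPM in females and 31.6 CPM in males. Calls were few among the signal carriers, where 6.39% of all genes were called. Of 27 Slit, Robo and netrin carriers 3 were lower in males and 0 higher. The 3 included Srgap1, a GTPase regulator bound by Robos (lower by 0.42), and Cables1 (by 0.60). Of 27 semaphorin and plexin carriers 1 was lower (Rnd3, which binds plexins, by 0.33) and 1 higher (Rras2, 0.35). Of 26 Eph and ephrin carriers 1 was higher (Vav2, 0.29) and 0 lower. Counts this small are not read as a result about the lists.

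In bladder the sexes differed in 1 of 66 members. Sema3b was higher in males, with 26.3, 24.4, 24.5 and 22.4 CPM in females and 31.4, 30.7, 38.7 and 33.4 CPM in males of litters 1 to 4 (log2 fold change 0.46, adjusted p = 0.031), without overlap. Over all genes 0.247% were higher and 0.334% lower. No member was called lower by edgeR, although 14 were lower and 7 higher at an unadjusted p under 0.05 (5.42% and 7% of all genes), and DESeq2 called 2 lower, Ntn4 and Efnb1. Epha1, Sema4a and Sema3f, which were higher in males in the urethra, were also higher in 4 of 4 litters in bladder without being called: their log2 fold changes were 0.36, 0.54 and 0.20 (adjusted p = 0.25, 0.14 and 0.12). The call of Sema3b was lost when bladder female 2, bladder female 3, bladder female 4, bladder male 3 or bladder male 4 was left out (highest adjusted p = 0.17). It was also lost with the epithelial score in the fit, without the 3 libraries lowest in that score, and when the bladder libraries were fitted alone. Epithelial marker sums were 2196 to 4478 CPM in female and 4494 to 5516 CPM in male bladder, and their part in this difference was not tested beyond that fit.

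The tissue difference itself depended on sex for 2 members. By the interaction of tissue and sex the signed log2 fold change of urethra over bladder was higher in males for 0.537% of all genes and lower for 0.131%. Epha3 rose in the urethra by 0.97 on the log2 scale in females and by 2.19 in males, a difference of 1.22 (adjusted p = 0.0015). In bladder it held 52.3, 58.5, 59.7 and 59.6 CPM in females and 39.3, 56.3, 40.0 and 54.0 CPM in males, lower in males in 4 of 4 litters with overlapping ranges and not called (log2 fold change -0.28, adjusted p = 0.37). The interaction of 1.22 joins that value and the rise in male urethra. It was called in all 24 other settings. Ephb1 differed by -0.10 in females and -0.88 in males, an interaction of -0.79 (adjusted p = 0.033) that was called in 13 of 24 settings. Its call was lost in 10 of 16 fits without 1 library (highest adjusted p = 0.10), those without bladder female 4, bladder male 1, bladder male 3, bladder male 4, urethra female 1, urethra female 3, urethra female 4, urethra male 2, urethra male 3 or urethra male 4.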

How the data were processed

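Strand-specific poly(A) libraries of 250 ng total RNA were read as 100 bp pairs, per the labels' protocols. Per the submitters' processing notes, reads were aligned to GRCm38 with HISAT2 2.1.0 and counted with Subread 1.6.3. The GENCODE release was not given in the sources used here. The deposited table holds raw counts of read pairs per gene symbol, made by featureCounts with strand setting 2, per the file headers, and gives the exon length of each gene. The authors' second table, normalised with DESeq2, was not used here.

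Genes passing edgeR's filterByExpr were fitted over all 16 libraries with 4 group means (edgeR 4.0.16 with TMM factors and the quasi-likelihood test, limma 3.58.1, R 4.3.3), and p-values were adjusted by Benjamini-Hochberg over all 18254 genes. The fit was tested on simulated data with few changed genes and no litter effect. That check does not cover data in which most genes differ or libraries of a litter correlate. CPM and RPKM were computed here from the counts and TMM-scaled totals. Library totals limit precision chiefly for members under 1 CPM. Of the members 4 share exon bases on the same strand with another gene, at most 1.74% of their length (Ntn3). Figures used matplotlib 3.10.9 and pandas 2.3.3 under Python 3.11.15.

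The members and lists were chosen with earlier results of these data known. Named genes are, in each role class, up to 2 of the highest and 2 of the lowest called members and the most abundant one, every member called between the sexes or in the interaction (at most 12), and in each pathway list the called gene with the largest rise and the largest fall. Others were chosen after their values were seen, and some listed genes are not reported here. The labels give the litter of each library, so equal replicate numbers pair the libraries: deviations of the 2 tissues from 1 litter and sex correlated at 0.09 to 0.41 (median 0.19, 7 of 8 over 0.1), against a median of -0.06 between litters. Alternatives were the litter as replicate block, DESeq2 1.42.0, DESeq2 size factors, library totals alone, other filters, each contrast's groups alone, an epithelial score as covariate (mean log2 CPM of 16 markers), leaving out the 3 libraries lowest in it, and leaving out each library. A neuron score as covariate was added after the data had been seen.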

Additional observations from a re-analysis of the deposited data

Results flagged for a closer look

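Each named gene's 4 libraries per group were searched for 1 value far from the other 3 (Dixon's ratio at its 95% limit). This marked 8 of 164 groups over 41 genes, and chance marks about 1 group in 20. High values were those of Efna4 (21.2 CPM in bladder male 2, the others at most 16.7), Ephb6 (20.5 CPM in bladder male 2, the others at most 16.9), Epha5 (4.35 CPM in bladder male 3, the other male bladder libraries at most 2.76, and bladder female 2 at 4.55), Robo1 (41.7 CPM in bladder female 3, the others at most 28.7), Nrp2 (345.6 CPM in urethra male 3, the others at most 296.8) and Sema3b (20.8 CPM in urethra male 3, the others at most 16.3). Low values were those of Epha3 (52.3 CPM in bladder female 1, the others at least 58.5) and Ephb1 (19.2 CPM in urethra female 2, the others at least 21.5). Bladder male 3, which gave the high Epha5 value, also had the highest summed neuron markers of the bladder libraries (1098 CPM), and the part of these in the value was not tested.

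The tissue difference of 2 genes differed between the sexes by the interaction test: that of Epha3 was larger in males by 1.22 on the log2 scale and that of Ephb1 was lower in males, at -0.79.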

How the results depend on the processing

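Of the 61 calls between the tissues 61 kept their direction and 52 their call in all 25 other settings. The replicate block by litter kept all 61 and added Plxna4 (51 higher, 11 lower), and the block by litter and sex added Nrp2 (50 and 12), and neither ended a call. With the epithelial score in the fit 54 of 61 were kept. Over the 16 fits without 1 library, members called were 49 to 51 higher and 9 to 12 lower over both sexes, 45 to 50 and 8 in females, 46 to 48 and 9 to 11 in males, 2 to 4 and 4 to 10 between the sexes in urethra, 0 to 1 and 0 to 1 in bladder, and 1 to 2 and 0 to 1 for the interaction. Between the sexes in urethra the 4 higher became 2 with the epithelial score and 1 without the 3 libraries lowest in it, and the 7 lower became 11 with the replicate block, 4 without the filter on low counts, 3 with the epithelial score and 3 without those libraries. In bladder the 1 higher became 0 when the bladder libraries were fitted alone, with the epithelial score or without those libraries, and the 0 lower became 2 with DESeq2. The interaction of Ephb1 was lost without those libraries (0 lower). Plxnb2, not called between the tissues, turned from -0.03 to 0.10 (library totals alone), 0.036 (no filter), 0.014 (without bladder female 3), 0.009 (without bladder female 4) and 0.013 (without bladder male 3), within -0.06 to 0.014 over the fits without 1 library. The cause was not tested for any of these. Library totals alone moved the median of all genes to 0.10 in females and 0.12 in males. Depth limits Epha6, Epha10, Slit1, Plxnb3 and Unc5d, whose bladder means lie under 1 CPM.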
